A study of Mus musculus with 6 samples.

Results

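Imprinted growth genes are a set of 10 genes that are expressed from 1 parental allele and are abundant in the embryo. Their probes were taken by gene symbol from the platform annotation of the array, whatever the measured values. The genes themselves were chosen with earlier results of these data known. Of the 19057 named genes on the array 9 were members, and of its 45281 probes 21 carried their symbols. Of these, 8 probes belonged to the maternally expressed Meg3, Cdkn1c, Grb10 and Zim1, and 13 to the paternally expressed Dlk1, Peg3, Mest, Plagl1 and Ndn. H19, the tenth gene and a maternally expressed long RNA, had no probe under its symbol and was not analysed here.

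The arrays held total RNA of whole mouse kidneys at E13.5, a stage of active nephron formation. There were 3 control arrays and 3 arrays of kidneys called YapCM-/-, and all 6 came from a mixed background of C57BL/6 and 129S1/SvImJ. The labels give no further allele or treatment for the controls. Yap is the transcriptional coactivator that Hippo signalling restrains. From what is known of the study, CM means cap mesenchyme, the nephron progenitor population. The deletion was driven by a Six2-linked Cre, also from that knowledge and not from the labels. Cells not derived from these progenitors would then have kept the gene. The labels do not say whether replicates were separate embryos or pools. The p-values thus set each group difference against the spread of arrays within a group, and that spread may be partly technical. Xist read 11.81 in control replicate 2 and 11.47 in YapCM-/- replicate 3, and at most 7.35 on the other arrays. The arrays of a group were therefore not all repeats of the same RNA.

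Genomic imprinting marks a small number of genes by DNA methylation laid down in egg or sperm, so that each is later read from the chromosome of 1 parent. Many imprinted genes act on fetal growth: as a general tendency, paternally expressed genes promote growth and maternally expressed genes restrain it. In mouse embryos many of them are strongly expressed in mesoderm and are turned down together after birth, which has led to their description as a network. In the developing kidney, loss of Cdkn1c disturbs growth of the renal medulla.

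The array values are log2 signals that were already normalised between arrays, with a median of 7.30 on each. Pairs of arrays correlated between 0.983 and 0.993 over the 22640 tested probes, the 50% with the highest mean signal (a mean above 7.29), and 3 arrays per group limit the precision of every value. Yap1 itself, the check on the labels, read 9.75, 9.81 and 9.64 in control and 8.91, 8.72 and 8.99 in YapCM-/- kidneys, a log2 difference of -0.86 (limma adjusted p = 0.0102). In limma it no longer passed when control replicate 1 (adjusted p = 0.0954) or control replicate 3 (adjusted p = 0.0518) was left out, or with background subtracted (adjusted p = 0.193). Kidney markers were above the filter: 8 of 8 cap mesenchyme, 7 of 8 ureteric bud and 8 of 9 stromal genes had a tested probe. Of 8 markers of adrenal gland and gonad, organs beside the kidney, only Cyp11a1 and Mc2r had one, and Nr5a1, Star and Cyp17a1 did not. In whole organs, fewer cells of a type and less RNA per cell cannot be told apart.

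The promoter sequences of the members on which the comparisons below turn are shown first. Whether the imprint of a gene lies in its window was not tested. They come from RefSeq (build GRCm38.p6), run from 250 bases before to 50 bases after an annotated start, and are written 5′ to 3′ on the gene's strand. Capitals mark matches on either strand to TGCCGC, the core motif of ZFP57, a zinc finger protein that protects imprinted methylation, or to GGAATG, a core motif of the TEAD factors through which Yap acts. Mest has an upstream start (chr6:30733256-30733555, + strand) and a downstream one (chr6:30737800-30738099, + strand), with a near copy of the second window shifted by 3 bases that is not shown. Grb10 is shown at its CpG-rich start (chr11:12037371-12037670, - strand) and Peg3 at its 1 listed start (chr7:6730370-6730669, - strand). The other Grb10 window, with 9 CpG and 0 matches to either motif, is not shown.
Mest, upstream start: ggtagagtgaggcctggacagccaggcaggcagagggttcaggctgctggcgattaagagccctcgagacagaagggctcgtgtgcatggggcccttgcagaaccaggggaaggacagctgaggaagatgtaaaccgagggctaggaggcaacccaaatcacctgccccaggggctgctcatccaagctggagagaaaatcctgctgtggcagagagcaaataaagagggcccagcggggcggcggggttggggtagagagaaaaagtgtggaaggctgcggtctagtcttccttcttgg
Mest, downstream start: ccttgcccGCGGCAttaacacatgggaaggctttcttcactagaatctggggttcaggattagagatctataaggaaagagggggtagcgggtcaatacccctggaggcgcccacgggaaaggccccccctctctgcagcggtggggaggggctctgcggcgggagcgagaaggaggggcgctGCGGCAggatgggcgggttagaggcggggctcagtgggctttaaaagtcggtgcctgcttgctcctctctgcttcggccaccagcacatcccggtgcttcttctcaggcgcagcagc
Grb10, CpG-rich start: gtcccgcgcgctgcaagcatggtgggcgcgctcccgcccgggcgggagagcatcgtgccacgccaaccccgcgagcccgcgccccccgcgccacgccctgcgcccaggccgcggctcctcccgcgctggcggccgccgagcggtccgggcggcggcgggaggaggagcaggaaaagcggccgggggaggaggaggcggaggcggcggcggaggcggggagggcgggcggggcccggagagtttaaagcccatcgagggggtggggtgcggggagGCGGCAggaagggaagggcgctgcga
Peg3: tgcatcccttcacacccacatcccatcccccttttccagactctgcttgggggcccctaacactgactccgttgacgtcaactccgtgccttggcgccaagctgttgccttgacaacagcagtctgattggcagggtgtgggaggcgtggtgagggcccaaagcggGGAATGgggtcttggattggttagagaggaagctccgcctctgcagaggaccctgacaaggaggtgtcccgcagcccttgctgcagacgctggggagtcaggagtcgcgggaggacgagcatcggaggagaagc

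The downstream Mest window held 2 TGCCGC matches and the upstream one 0. The Grb10 window held 1 TGCCGC match and the Peg3 window 1 GGAATG match. Among the 32851 windows of all genes in the table, 11.6% held TGCCGC at least once and 1.53% held it at least 2 times, while 14.7% held GGAATG. Of the 12 member windows, 6 held TGCCGC and 2 held GGAATG. The 6 include the downstream Mest window and its near copy, which are not separate sequences. By gene, of the 8 members with a window, Mest, Grb10, Meg3, Plagl1 and Zim1 had TGCCGC in at least 1 window. Peg3 and Zim1 had GGAATG. In Zim1 the matches to the 2 motifs overlapped each other. CpG dinucleotides numbered 17 in the downstream Mest window, 8 in the upstream one, 45 in the CpG-rich Grb10 window and 13 in the Peg3 window, against a median of 7 and an upper quartile of 20 over all windows. Of the 12 member windows 11 had more CpG than that median. TGCCGC itself contains a CpG, so its share over all windows is not a background matched for CpG. These matches describe the letters of the windows and do not show binding.

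None of the members passed the test over all probes. Of the 13 tested member probes, which covered 7 genes, 0 reached an adjusted p of 0.05 in limma, where 0.177% of all tested probes did. At that share 0 of 13 does not set the members apart. The smallest absolute log2 difference called on the whole array was 0.5, and member differences ran from -0.40 to 0.28. Of the 13 probes, 5 stood at an unadjusted limma p under 0.05, or 38.5% against 11.5% of all tested probes. Of these 5, 2 were higher and 3 lower in YapCM-/- kidneys, and 2 came from Mest. The groups did not overlap at 2 of the 13, or 15.4%, against 16.5% of all tested probes. The median log2 difference was -0.03 over the member probes and 0.001 over all tested probes. Since the members were chosen with results of these data known, these shares are descriptions.

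**Figure D1:**
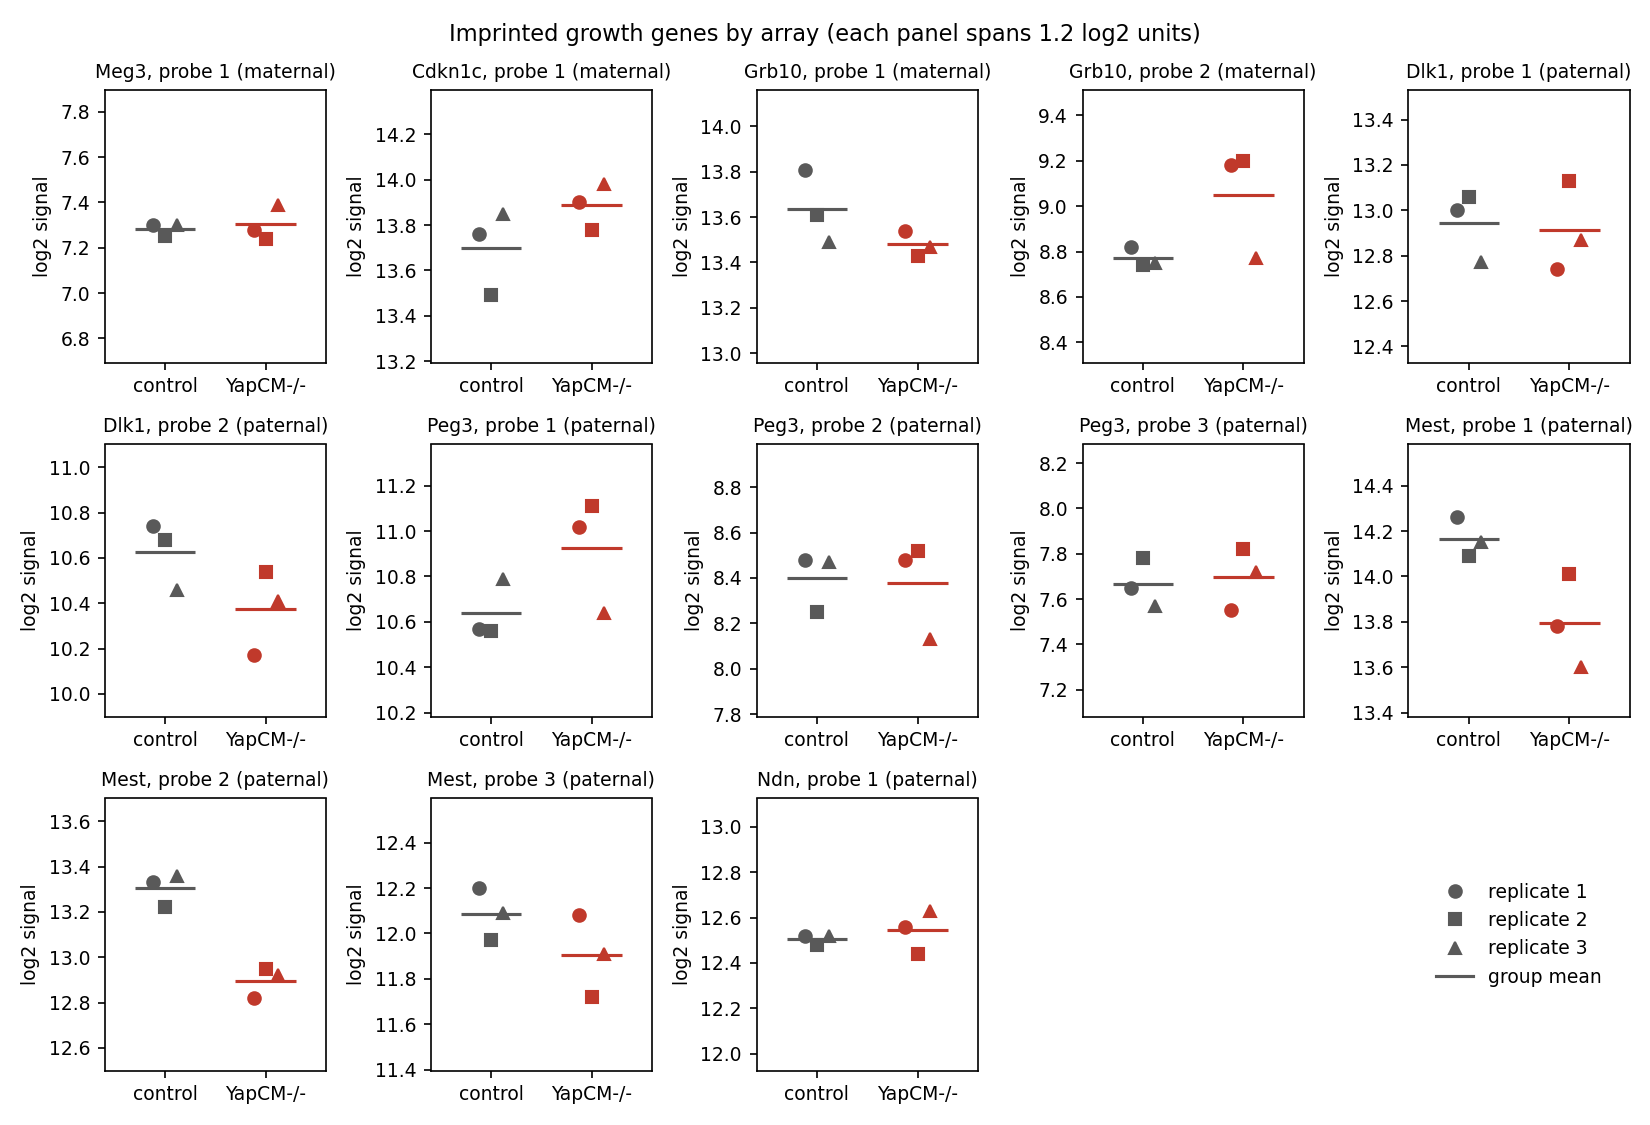
Log2 signal (y axis) of the 13 tested member probes in 3 control and 3 YapCM-/- arrays, 1 panel per probe and each spanning the same range. Points are arrays, shaped by replicate number, and lines are group means; the 2 brightest Mest probes are the panels without overlap between the groups.

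The paternally expressed members included the gene that stood farthest from 0. Mest, also called Peg1, encodes a protein of the alpha/beta hydrolase family and is a marker of embryonic mesoderm that promotes growth. Its brightest probe read 14.26, 14.09 and 14.15 in control and 13.78, 14.01 and 13.60 in YapCM-/- kidneys. The next read 13.33, 13.22 and 13.36 in control and 12.82, 12.95 and 12.92 in YapCM-/- kidneys. At both probes every YapCM-/- array lay below every control array, which was so in this direction for 8.41% of all tested probes and in the other for 8.11%. The third probe read 12.20, 11.97 and 12.09 in control and 12.08, 11.72 and 11.91 in YapCM-/- kidneys, with lower values in the mutant but overlapping groups.

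The log2 differences of the 3 Mest probes were -0.37 (SE 0.108, 95% confidence interval -0.61 to -0.13), -0.40 (SE 0.079, -0.58 to -0.23) and -0.18 (SE 0.105, -0.42 to 0.05), in order of brightness. Control levels were thus 1.29-fold, 1.32-fold and 1.13-fold the YapCM-/- levels. By limma the adjusted p was 0.242, 0.105 and 0.559, and the unadjusted p 0.00693, 0.000455 and 0.116, so that no Mest probe passed. All 3 are annotated to the same RefSeq transcript and keep the same sign with any 1 array left out. The difference of the third probe was then -0.09 without YapCM-/- replicate 2 and -0.27 without YapCM-/- replicate 1. Over the 6 arrays the brightest probe correlated with the second at 0.84 and with the third at 0.36, and the second with the third at 0.52, which describes 6 points that share their arrays.

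Markers of the cap mesenchyme differed between the same arrays. Of the 8 listed markers 4 were higher and 4 lower in YapCM-/- kidneys, with a median difference of -0.06. In limma 2 of them fell, Cited1 by 0.72 (adjusted p = 0.00662) and Meox2 by 1.09 (adjusted p = 0.00175) on the log2 scale, and 6 did not pass. With the background subtracted neither passed (limma adjusted p = 0.0536 and 0.117), and Cited1 did not pass without control replicate 3 (limma adjusted p = 0.0537). Six2, the transcription factor that keeps progenitors undifferentiated, read 8.79, 8.97 and 8.72 in control and 8.48, 8.39 and 8.52 in YapCM-/- kidneys (log2 difference -0.36, limma adjusted p = 0.193), without overlap. Eya1, a transcriptional regulator of the same progenitors, stood the other way, also without overlap, at 8.74, 8.82 and 8.96 in control and 9.36, 9.04 and 9.15 in YapCM-/- kidneys (log2 difference 0.34, limma adjusted p = 0.242). The summed signal of the 8 markers ran from 6039 to 7261 in control and from 6062 to 6693 in YapCM-/- arrays. No background subtraction is visible, so such a sum would not reach 0 even without expression. Crym and Gdnf, the brightest of the 8, weigh most in it and differed by 0.22 and 0.09. The stromal markers had a summed signal of 14342 to 18487 in control and 13372 to 17124 in YapCM-/- arrays, with 0 of 8 called by limma and 3 lower at an unadjusted p under 0.05. Foxd1, the defining gene of the cortical stroma, read 11.21, 11.39 and 10.77 in control and 11.19, 11.55 and 10.80 in YapCM-/- kidneys. Ureteric bud markers summed to 8311 to 8493 in control and 8843 to 9733 in YapCM-/- arrays. Erythroid markers summed to 43944 to 48242 in control and 49709 to 50450 in YapCM-/- arrays. Of 5 tested erythroid genes 3 were higher and 2 lower, with a median difference of 0.02. Muscle markers summed to 1633 to 1741 in control and 1485 to 1586 in YapCM-/- arrays. Of 5 tested muscle genes 3 were higher and 2 lower, with a median difference of 0.03. Limma called 0 genes of either list. The brightest genes lead such sums, here Hba-a1 and Hbb-y (log2 control means 14.48 and 14.27) and Des (9.75). The sums of endothelial, adrenal and gonad, and neural crest markers overlapped between the groups. The part of any of these cell types in the Mest values was not tested.

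The Mest gene also holds a microRNA, miR-335, on its own strand between the downstream start and the end of the gene. Its mature forms are given from RefSeq (GRCm38.p6, chr6:30741314-30741336 and chr6:30741354-30741375) with bases 2 to 8, the seed, in capitals, since both are made from the Mest region. Their levels were not analysed here.
mmu-miR-335-5p: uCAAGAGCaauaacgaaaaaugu
mmu-miR-335-3p: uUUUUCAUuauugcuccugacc

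Dlk1, a transmembrane relative of the Notch ligands that holds back differentiation, had a pair of tested probes. The brighter read 13.00, 13.06 and 12.77 in control and 12.74, 13.13 and 12.87 in YapCM-/- kidneys, a log2 difference of -0.03 (95% confidence interval -0.29 to 0.23, limma adjusted p = 0.953). The dimmer read 10.74, 10.68 and 10.46 in control and 10.17, 10.54 and 10.41 in YapCM-/- kidneys, a difference of -0.25 (-0.50 to -0.005, adjusted p = 0.429). The groups overlapped at both, and the pair correlated at 0.75 over the 6 arrays. Without YapCM-/- replicate 1 the difference of the brighter probe was 0.05 and that of the dimmer was -0.16.

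Peg3 encodes a large zinc finger protein, and its tested probes differed in sign. The brightest read 10.57, 10.56 and 10.79 in control and 11.02, 11.11 and 10.64 in YapCM-/- kidneys. The log2 difference was 0.28 (SE 0.124, 95% confidence interval 0.004 to 0.56, limma adjusted p = 0.430). YapCM-/- replicates 1 and 2 were above all controls and replicate 3 was within them. Without YapCM-/- replicate 3 the difference was 0.42 (limma adjusted p = 0.199 there). The second probe read 8.48, 8.25 and 8.47 in control and 8.48, 8.52 and 8.13 in YapCM-/- kidneys (-0.03, adjusted p = 0.958). The third read 7.65, 7.78 and 7.57 in control and 7.55, 7.82 and 7.72 in YapCM-/- kidneys (0.03, adjusted p = 0.940), and the groups overlapped at both. Over the 6 arrays the brightest Peg3 probe correlated with the second at 0.59 and with the third at -0.04, and the second with the third at -0.33. The fourth, which names no accession and was too dim to be tested, lay between 7.01 and 7.10 on all arrays.

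Ndn encodes necdin, a MAGE family protein that restrains cell division in neurons. Its 1 probe read 12.52, 12.48 and 12.52 in control and 12.56, 12.44 and 12.63 in YapCM-/- kidneys. The difference of 0.04 (SE 0.079, 95% confidence interval -0.14 to 0.22, limma adjusted p = 0.90) was smaller than its error. Plagl1, also called Zac1, encodes a zinc finger factor that in mice regulates other imprinted genes. Its 3 probes lay between 7.0 and 7.25 on every array, among the dimmer 50% of all probes, and were not tested.

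Among the maternally expressed members, Cdkn1c, the gene of the cyclin-dependent kinase inhibitor p57, read 13.76, 13.49 and 13.85 in control and 13.90, 13.78 and 13.98 in YapCM-/- kidneys. The difference was 0.19 (SE 0.104, 95% confidence interval -0.05 to 0.42), or 1.14-fold, with an adjusted p of 0.547 by limma. YapCM-/- values were higher on average and the groups overlapped. Control replicate 2 was the lowest array, and without it the difference was 0.08.

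Grb10, an adaptor protein that dampens insulin and IGF receptor signalling, had probes of opposite sign. The brightest, annotated to the RefSeq transcript, read 13.81, 13.61 and 13.49 in control and 13.54, 13.43 and 13.47 in YapCM-/- kidneys, a log2 difference of -0.16 (95% confidence interval -0.37 to 0.05, limma adjusted p = 0.573). The second, annotated to a cDNA clone, read 8.82, 8.74 and 8.75 in control and 9.18, 9.20 and 8.77 in YapCM-/- kidneys, a difference of 0.28 (0.02 to 0.54, limma adjusted p = 0.411). At the second probe YapCM-/- replicates 1 and 2 stood above all controls and replicate 3 among them, as at the brightest Peg3 probe. The 2 probes correlated at 0.91 over the 6 arrays. Meg3 and Ndn also reached 0.91, although the Meg3 signal lay just above the filter. Without YapCM-/- replicate 3 the difference at the second Grb10 probe was 0.42. The third Grb10 probe, also from a cDNA clone, lay between 6.98 and 7.13 and was not tested.

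Meg3 is a long noncoding RNA of the same chromosome domain as Dlk1, with 2 genes between them in the RefSeq order, and read from the opposite parental allele. Its brightest probe read 7.30, 7.25 and 7.30 in control and 7.28, 7.24 and 7.39 in YapCM-/- kidneys, a log2 difference of 0.02 (95% confidence interval -0.15 to 0.19, limma adjusted p = 0.954). That mean lay just above the filter, and the other probes, between 7.01 and 7.32, were below it. Zim1, a zinc finger gene that directly neighbours Peg3 and is read from the other allele, gave 7.18, 6.99 and 7.19 in control and 7.21, 7.19 and 7.04 in YapCM-/- kidneys and was not tested. The dim values of Meg3, Zim1 and Plagl1 do not show that the transcripts are absent. All 8 untested member probes together lay between 6.98 and 7.32 on single arrays, with differences from -0.08 to 0.06.

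**Figure D2:**
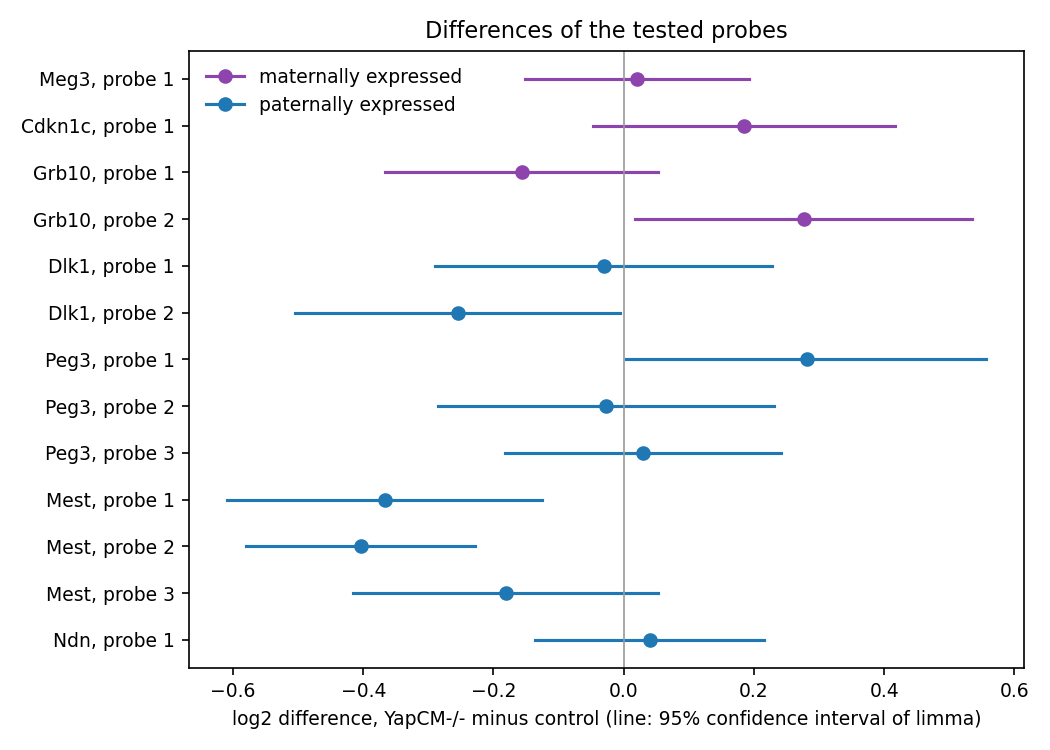
Log2 difference, YapCM-/- minus control (x axis), of the 13 tested member probes (y axis), coloured by the expressed parental allele, with the 95% confidence interval of limma as a line. The 3 Mest probes lie at -0.37, -0.40 and -0.18, and the 2 tested Grb10 probes fall on opposite sides of 0.

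Maternally and paternally expressed members were set side by side without a test. The 4 tested maternal probes had a median difference of 0.10, from -0.16 to 0.28, with 3 higher and 1 lower. The 9 tested paternal probes had a median of -0.03, from -0.40 to 0.28, with 3 higher and 6 lower, and 3 of the lower ones were the Mest probes. In both classes 0 probes were called by limma, and at an unadjusted p under 0.05 stood 1 maternal and 4 paternal probes. With 1 probe per gene the maternal median was 0.02 and the paternal median 0.004, so that the paternal sign turned and the classes lay close together; the probes of a gene are no independent members. The deviation of the paternal probes from their control means had a median of 0.06, -0.08 and 0.00 in the control arrays and -0.12, -0.06 and -0.18 in the YapCM-/- arrays, so that YapCM-/- replicate 2 lay within the control range. For the maternal probes it was 0.06, -0.03 and 0.00 in control and 0.10, 0.02 and 0.05 in YapCM-/- arrays.

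Genes of the same imprinted domains and other textbook imprinted genes did not pass either. Of 15 further maternally expressed genes 10 had a tested probe, with 4 higher, 6 lower and a median difference of -0.01. Of 19 further paternally expressed genes 8 had one, with 5 higher, 3 lower and a median of 0.02. Over both lists 0 of 18 genes were called by limma, where 0.177% of all tested probes were, and 1 was lower at an unadjusted p under 0.05. At that share 0 of 18 does not set these genes apart. Igf2, the paternally expressed growth factor beside H19, read 14.97, 15.09 and 15.16 in control and 15.12, 15.19 and 15.13 in YapCM-/- kidneys (log2 difference 0.07, 95% confidence interval -0.10 to 0.25, limma adjusted p = 0.790).

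The 2 further genes with the smallest p were Peg10 and Kcnq1ot1 among the paternally expressed and Slc22a18 and Ube3a among the maternally expressed. Peg10, a paternally expressed gene derived from a retrotransposon and needed in the placenta, read 7.91, 7.86 and 7.92 in control and 7.73, 7.57 and 7.82 in YapCM-/- kidneys (-0.19, limma adjusted p = 0.430), and its dimmer probe differed by 0.04. Kcnq1ot1 is the long RNA that silences Cdkn1c and its neighbours on the paternal chromosome. Its brighter probe, which names no accession, read 7.76, 7.92 and 7.87 in control and 8.33, 8.75 and 7.68 in YapCM-/- kidneys (0.41, limma adjusted p = 0.505). That probe was high in YapCM-/- replicates 1 and 2 and not in replicate 3. The other probe, annotated to the RefSeq transcript, differed by -0.01. Slc22a18, a maternally expressed transporter gene near Cdkn1c, was at -0.14 (limma adjusted p = 0.571). Its dimmer probe, which was not tested, stood at 0.15. Ube3a, a ubiquitin ligase gene imprinted in neurons, was at -0.23 (limma adjusted p = 0.620), and its dimmer tested probes at -0.12 and 0.13.

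**Figure D3:**
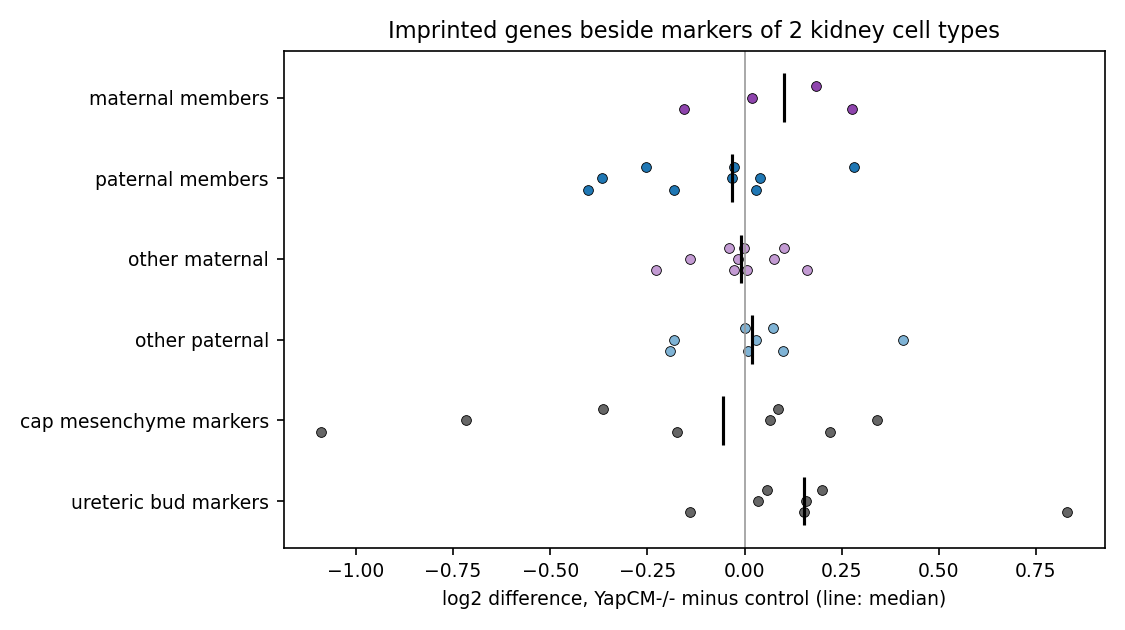
Log2 difference, YapCM-/- minus control (x axis), of all tested member probes by parental allele, and of the brightest tested probe of each further imprinted gene and of cap mesenchyme and ureteric bud markers (rows), with the median of each row as a line. Imprinted genes lie between -0.40 and 0.41, the latter a Kcnq1ot1 probe that names no accession. The marker rows reach -1.09 at Meox2 and 0.83 at Ret, their outermost points. The ureteric bud row holds 7 genes, 6 higher and 1 lower, with a median of 0.15, and limma called only Ret.

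The genes whose pattern over the 6 arrays was most like a member's were named by the highest Pearson correlation among tested probes of other named genes. For the brightest Mest probe this was Emilin1, at 0.997, a gene with a difference of -0.12. For Cdkn1c it was Hsd3b7 at 0.998, for Grb10 Fbxo2 at 0.995, for Dlk1 Ran at 0.992, for Ndn Hip1 at 0.989, for Peg3 Trappc1 at 0.994 and for Meg3 Mrps31 at 0.996. No member was the nearest pattern of another. Between 108 and 440 probes correlated above 0.9 with each member, so that with 6 arrays the nearest gene is 1 of many.

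**Figure D4:**
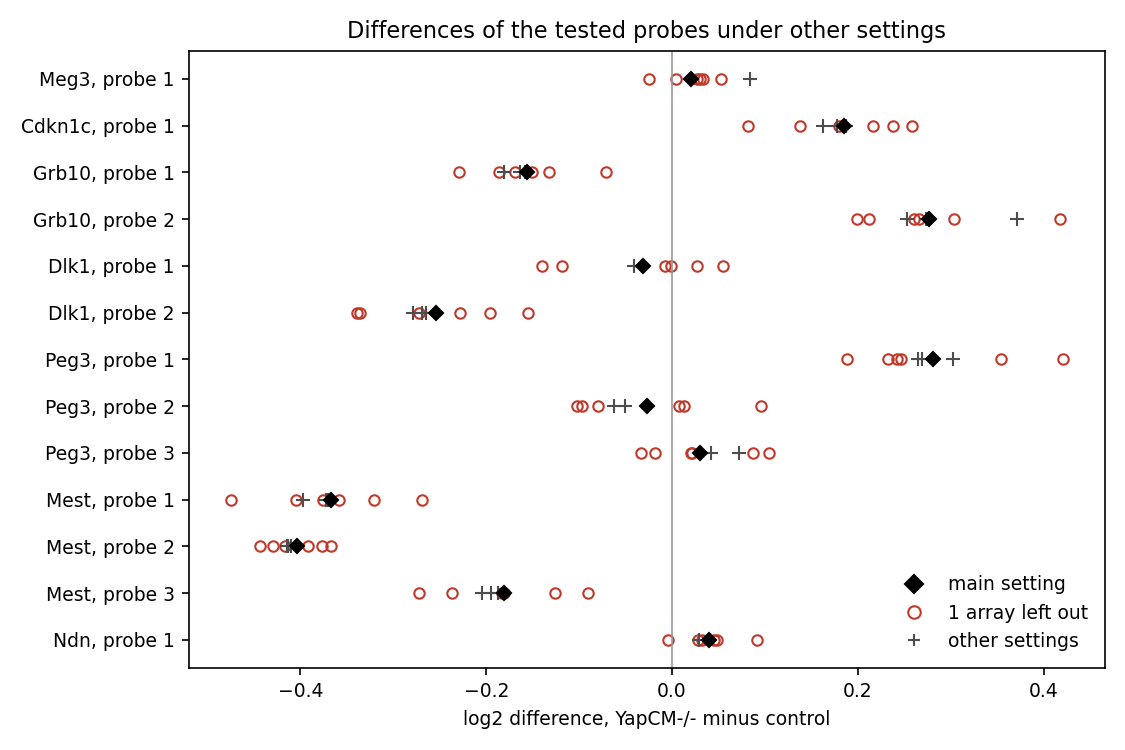
Log2 difference, YapCM-/- minus control (x axis), of the 13 tested member probes (y axis) in the main setting (diamonds), with 1 array left out (circles) and under the other settings that kept single probes (crosses). The 3 Mest probes stay below 0 throughout, from -0.48 to -0.09, while the brightest probes of Dlk1, Meg3 and Ndn and the dimmer tested Peg3 probes have values on both sides of 0.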

How the data were processed

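Total RNA from embryonic kidneys was made into biotin-labelled cRNA for bead arrays from Illumina, per the labels' protocols. The deposited log2 signals of 45281 probes on 6 arrays were used; their sorted columns differ by at most 0.00608, as after quantile normalisation. The authors' software was not stated in the labels or headers, and no background subtraction is visible, so folds of dim probes are understated. A deposited table of values before normalisation was not used: its 12 columns of per-sample values carry names that match no label.

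Probes were named by the platform annotation, which can be old: 34885 had 1 gene symbol, 18 several and 10378 were not listed. Gene IDs of the 9 members matched RefSeq, with 0 symbols changed.

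Probes in the brighter 50% by mean signal were fitted with lmFit and eBayes of limma 3.58.1 (R 4.3.3), 3 against 3, two-sided, without covariates, with Benjamini-Hochberg adjustment over all 22640 tested probes. The fit was tested on simulated data, in which all added effects were larger than any member difference reported here. Lists used each gene's brightest tested probe. Named were all members, Yap1, Igf2, 2 further imprinted genes per allele by smallest p, and the gene most correlated with each member. The members and lists were chosen with earlier results of these data known. Other settings covered the filter, eBayes options, array weights, a replicate block, background, normalisation, probes per gene and each array left out.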

Additional observations from a re-analysis of the deposited data

How the results depend on the processing

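No member probe and none of the further imprinted genes passed under any alternative run, with or without the filter on dim probes; over 187 values of the 13 member probes the smallest adjusted p was 0.0584, at the second Mest probe with an intensity trend in the prior variance. All Mest, Cdkn1c and brightest Peg3 values, and those of the dimmer Grb10 and Dlk1 probes, kept their sign. With 1 array left out, differences that crossed 0 ran from -0.025 to 0.053 (Meg3), -0.14 to 0.055 (brightest Dlk1), -0.102 to 0.096 (second Peg3), -0.033 to 0.104 (dimmest tested Peg3) and -0.004 to 0.091 (Ndn). The mean of the Grb10 probes stood at 0.06, against -0.16 at its brightest probe. The count of called probes over the whole array, 40, was 26 in the upper 25% of probes, 138 with the replicate block, 0 by limma with the background subtracted (2180 at an unadjusted p under 0.05; Yap1 then -1.09, adjusted p = 0.193), and 9, 12 and 6 without control replicates 1, 2 and 3, 25 without YapCM-/- replicate 2 and 27 without either other YapCM-/- replicate. The labels name no pairs, so replicate numbers were not taken as pairs. Same-numbered arrays deviated with correlations of 0.132, 0.142 and -0.0212. Arrays of different number were not compared in this way, so these values cannot decide whether the numbers are pairs. The member median moved to 0.04 with the mean of a gene's probes and ran from -0.09 (without YapCM-/- replicate 2) to 0.032 (without YapCM-/- replicate 1) with 1 array left out. The maternal median was 0.010 without the filter, 0.185 in the upper 25% and 0.02 with 1 probe per gene, and 0.043 (without control replicate 2) to 0.142 (without control replicate 3) with 1 array left out. The paternal median was 0.004 with 1 probe per gene, its sign turned, -0.106 in the upper 25% and -0.118 (without control replicate 3) to -0.001 (without control replicate 1) with 1 array left out. The causes were not tested.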

Other observations

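Signal was high in YapCM-/- replicates 1 and 2 and not in replicate 3 at several probes outside the members. Kcnq1ot1 is given above. Rian, a long RNA of the Dlk1 and Meg3 domain, read 8.11, 8.03 and 7.98 in control and 8.22, 8.26 and 7.95 in YapCM-/- kidneys. The second brightest probe of Meis1, a homeobox gene of the renal stroma, read 8.37, 8.04 and 8.26 in control and 8.67, 8.87 and 8.09 in YapCM-/- kidneys. The brightest Meis1 probe did not show this order, at 11.58, 11.60 and 11.70 in YapCM-/- kidneys and 11.75, 11.85 and 11.45 in control. None of these passed in limma, and they were picked after their values were seen. Xist was at 11.47 in YapCM-/- replicate 3 and 11.81 in control replicate 2, and between 7.23 and 7.35 on the other 4 arrays.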
